A study of Mus musculus with 23 samples.

Results

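The transcriptional response of the mouse colon to dietary heme was described in mice that lack PPARα. Expression was compared between 6 PPARα KO mice fed heme and 6 PPARα KO mice fed the control diet. The description covers the 14252 of 18820 measured genes whose mean linear signal exceeded 20 in at least 1 of these groups, while the other 4568 genes stayed at or below that limit in both. Cyp7b1 lay just inside the limit and Drd1 just outside it, each with a mean of 4.32 on the log2 scale in the heme-fed mice, its higher group. KO mice were males of strain 129S4/SvJae-Pparatm1Gonz/J, in which Ppara is disrupted in the whole body, and were 7 to 9 weeks old at the start. For 14 days both groups ate a Westernized high fat diet in which fat supplied 40% of the energy and calcium was low, at 30 µmol per g, and the heme group received 0.5 µmol heme in each g of it. Each mouse gave scraped colon mucosa, its own RNA and 1 whole-transcript array, so the replicates are separate animals. Male wild-type mice of strain 129S1/SvImJ on the same diets (5 control and 6 heme-fed, after the study left out 1 control array for its quality) served for the test of whether a response differed without PPARα. In that test genotype and substrain cannot be told apart, whereas heme and control mice of the KO strain share both.

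Heme is an iron porphyrin of red meat that is poorly absorbed, and in the colon lumen it promotes oxidants and lipid peroxides that injure the surface cells. Heme that enters a cell is opened by heme oxygenase, and the transcription factor NRF2, held back by KEAP1 until oxidants or electrophiles reach the cell, turns on the enzymes of glutathione and NADPH supply. PPARα is a nuclear receptor that binds fatty acids and their derivatives, pairs with RXR and activates genes of fatty acid transport, oxidation and ketogenesis. The receptors PPARβ/δ (Ppard) and PPARγ (Pparg) recognise nearly the same DNA element, and both are active in colon epithelium.

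Signals are log2 values. For a gene described in full, the 3 values of a group are the lowest, the median and the highest of its 6 mice. A difference is heme minus control, ± denotes its standard error, and a fold change is that of the group means on the log2 scale. A gene was called, and is said to have risen or fallen, at a Benjamini-Hochberg adjusted p under 0.01 from limma over all 18820 genes. Counts over a gene list refer to its members above the signal limit, and its median to all its measured members. They are to be read beside all genes above the limit, of which 12.2% were called higher and 12.1% lower. The median over all measured genes was -0.01. Levels of different genes are not compared, because probe sets differ in brightness. In whole mucosa, fewer cells of a type and less RNA per cell cannot be told apart.

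Ppara itself was still detected in the KO mice, with 7.91, 8.29 and 8.56 on the control diet and 7.35, 7.59 and 7.89 on the heme diet. All KO mice lay below all wild-type mice of the same diet, whose signal was 8.8 to 9.13 on the control and 8.43 to 8.89 on the heme diet (two-sided exact permutation test, p = 0.00216 on each diet, the smallest these group sizes allow). Where the probes lie relative to the disrupted exon was not examined, so this signal is a check of the labels only in part. On heme this remaining signal fell by 0.63 ± 0.106 on the log2 scale (adjusted p = 9.31e-05).

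Some mice stood apart within their group. KO heme mouse 1 had the lowest array weight (0.447, against 0.768 to 1.38 for the other KO arrays) and the lowest mean correlation with its group (0.984, against 0.988 to 0.994). Its B cell markers averaged 1.23 above the control mean on the log2 scale, against -0.85 to 0.14 in the other heme-fed mice. In KO control mice 3 and 4 the interferon-stimulated genes averaged 0.52 and 0.57 above the control mean, against -0.35 to -0.18 in the other control mice. Without KO heme mouse 1, 3505 genes were called, and without KO control mice 3 and 4, a choice made after seeing the data, 2912. Smooth muscle markers averaged -0.68 to 0.45 in control and -0.77 to -0.17 in heme-fed mice, with a list median of -0.5. Of 16 such markers 1 was called lower (6.25%; Mylk, -0.37), though not without KO control mouse 2 or KO heme mouse 5. The epithelial markers overlapped between the groups (-0.07 to 0.09 in control, -0.04 to 0.08 in heme-fed mice), and 3 of 10 rose and 2 fell, the latter becoming 0 with arrays centred on their median.

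Heme called 3469 genes in the KO mice, 24.3% of those above the limit, with 1738 higher (12.2%) and 1731 lower (12.1%). Most changes were small. The median size was 1.29-fold among higher and 1.31-fold among lower genes, and 68.6% and 69.3% of them changed by less than 0.5 on the log2 scale. A change above 1 was reached by 111 higher and 74 lower genes, and one above 2 by 19 higher and 5 lower genes. The heme and control mice did not overlap for 2585 genes, 18.1% of those above the limit. When each array was centred on its own median, a shift of 0.044 in every difference, 2012 genes were higher and 1175 lower, so that the share of higher genes among called genes moved from 50.1% to 63.1%.

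**Figure D1:**
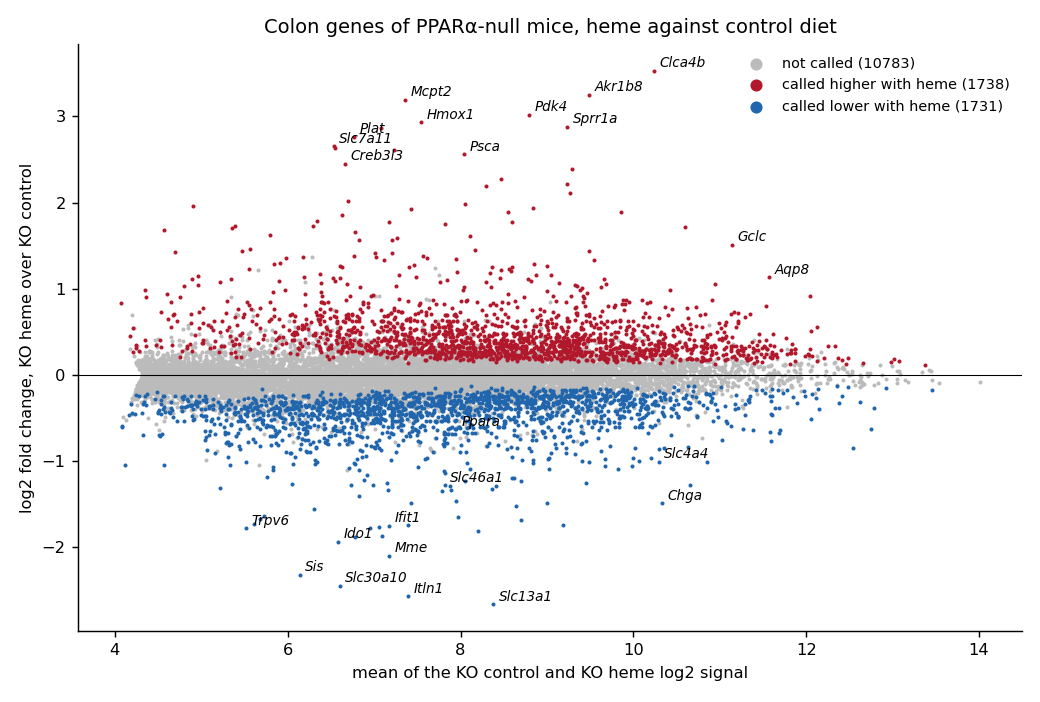
Heme minus control difference in PPARα KO mice (log2, vertical axis) against the mean log2 signal of the 12 KO mice (horizontal axis), 1 point per gene. Coloured points are the 1738 higher and 1731 lower genes called by limma, and grey points were not called. Labelled genes are a selection that includes smaller differences, such as that of Ppara (-0.63). Most called genes lie within 0.5 of 0, and few exceed 2.

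Among the genes with the largest rises were enzymes of several lipid and carbonyl pathways. Akr1b8, an aldo-keto reductase that reduces lipid-derived aldehydes, measured 7.57, 7.87 and 8.25 in control and 10.83, 11.13 and 11.3 in heme-fed mice. All heme-fed mice lay far above every control, with a difference of 3.25 ± 0.107 or 9.51-fold (adjusted p = 1.34e-15). Akr1c18, a hydroxysteroid dehydrogenase, rose by 2.86 ± 0.158, Mfsd2a, a transporter of lysophospholipids, by 2.61 ± 0.281 and Pla2g5, a secreted phospholipase A2, by 2.27 ± 0.135. The surface proteins Psca (2.56) and Ly6m (2.39), both of the Ly6 family, also rose. The 15 largest changes each way were picked among called genes whose groups do not overlap. Their lack of overlap, here and below, follows from that choice. At the other end, Mme (neprilysin, a peptidase of the brush border) fell by 2.1, Cubn (cubilin, an endocytic receptor) by 1.78 and the class I-like gene H2-T3 by 1.77. Scarna13, a small RNA of the Cajal body, measured 9.98, 10.01 and 10.2 in control and 7.89, 8.15 and 9.58 in heme-fed mice. Its fall of 1.74 ± 0.256 left 1 heme-fed mouse, number 6, close to the controls.

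Of genes that handle heme and iron, a few changed strongly and most did not pass the test. Of 27 members of the heme and iron list above the limit, 4 rose and 3 fell, shares of 14.8% and 11.1% beside 12.2% and 12.1% of all genes, and the list median was 0.04 against -0.01 over all genes. Hmox1, the inducible heme oxygenase, measured 5.73, 6.09 and 6.4 in control and 7.96, 9.34 and 9.51 in heme-fed mice. The lowest heme-fed mouse lay well above the highest control, and the difference was 2.93 ± 0.342 or 7.63-fold (adjusted p = 1.62e-06). Slc46a1, the proton-coupled carrier of folate that also takes up heme, moved the other way, from 8.25, 8.42 and 8.75 to 7.03, 7.13 and 7.52. All heme-fed mice lay below all controls, 2.44-fold lower on average (adjusted p = 2.5e-06). The heme exporter Abcg2 rose by 0.64 ± 0.0817, the ferritin light chain Ftl1 by 0.32 and the iron regulatory protein Aco1 by 0.19, while the iron importers Slc11a2 and Slc39a14 fell by 0.34 and 0.36. The ferritin heavy chain Fth1 (0.04), the iron exporter Slc40a1 (0.28), the transferrin receptor Tfrc (0.53) and the biliverdin reductases Blvra (-0.05) and Blvrb (-0.02) were not called. With KO control mice 3 and 4 left out, 2 members were called higher.

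Metallothioneins, which bind zinc and copper and scavenge oxidants, rose for 3 of the 4 genes measured. Mt1 went from 10.2, 10.36 and 10.93 to 11.03, 11.42 and 11.62, a difference of 0.87 ± 0.162 (adjusted p = 0.000292) without overlap. Mt4 rose by 1.44 ± 0.229 and Mt2 by 0.92 ± 0.229, though Mt2 lost its call without KO control mouse 1, 2 or 3 or KO heme mouse 5 (adjusted p = 0.0101 to 0.0113). Mt3 measured 0.04 (adjusted p = 0.845) and was not called. Over the whole metallothionein and zinc transport list 5 of 24 genes rose (20.8%) and 3 fell (12.5%), with a median of 0.03, and the 5 became 3 without any of those same mice.

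NRF2 targets rose in most cases. Of 45 genes above the limit 33 rose (73.3%) and 2 fell (4.44%), with a median of 0.47. Slc7a11, the cystine importer that feeds glutathione synthesis, measured 5.05, 5.22 and 5.34 in control and 7.42, 7.88 and 8.31 in heme-fed mice, 6.26-fold higher (adjusted p = 4.13e-07). The control mice were nearly identical and every heme-fed mouse was more than 2 above them on the log2 scale. Gclc, the catalytic subunit of glutamate-cysteine ligase, went from 10.23, 10.38 and 10.64 to 11.55, 11.91 and 12.27, 2.86-fold higher (adjusted p = 1.1e-09), and its modifier subunit Gclm rose by 0.59 ± 0.0945. Glutathione synthetase (Gss, 0.47), glutathione reductase (Gsr, 0.71) and the transferases Gsta3 (1.59), Gstm3 (0.72), Gstm1 (0.50) and Gstp1 (0.41) rose as well. For NADPH supply, malic enzyme Me1 rose by 2.19 ± 0.154, Pgd by 0.73, transketolase Tkt by 0.70 and transaldolase Taldo1 by 0.41.

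Nqo1, a quinone reductase, measured 7.2, 7.44 and 7.73 in control and 8.37, 8.93 and 9.28 in heme-fed mice, a rise of 1.45 ± 0.117 without overlap. Carbonyl reductases Cbr3 (1.96) and Cbr1 (0.92), sulfiredoxin Srxn1 (1.44) and thioredoxin reductase Txnrd1 (0.79) rose with it. Catalase (Cat), which destroys hydrogen peroxide, rose from 10.85, 10.99 and 11.17 to 11.18, 11.75 and 12.06, or by 0.71 ± 0.106, and its lowest heme-fed mouse just cleared the highest control. The superoxide dismutases Sod1 (0.12, adjusted p = 0.0668) and Sod2 (0.06) and glutathione peroxidase Gpx1 (0.04) were not called, whereas the gut isoform Gpx2 (0.72) rose. The gene of NRF2 itself, Nfe2l2, fell by 0.31, Ephx1, the microsomal epoxide hydrolase, fell by 0.7, and Keap1 measured -0.08.

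Over the NRF2 list the median response was 0.47 in KO and 0.55 in wild-type mice. The difference between the genotypes varied in sign and was negative for most genes given here. It was 0.32 (95% interval 0.0 to 0.64) for Akr1b8, also a listed target, and 0.05 (-0.42 to 0.51) for Me1, KO minus wild type. Abcc2, an exporter of glutathione conjugates, rose by 1.29 ± 0.199 in KO and 2.54 in wild-type mice, a difference of -1.24 with a 95% interval of -1.84 to -0.65. The same comparison gave -0.4 (-0.75 to -0.05) for Nqo1, -0.46 (-0.78 to -0.14) for Cat and -0.41 (-0.69 to -0.13) for Gclm. None of these differences was called when adjusted over all genes, where 2 of 14366 tested genes (0.0139%) passed and 1051 had an unadjusted p under 0.05. Over so many genes, some reach an unadjusted p under 0.05 without any difference. The 95% intervals are unadjusted too, so one that excludes 0 is not a call. For Gclc the difference was -0.25 (-0.57 to 0.08) and for Slc7a11 -0.43 (-1.27 to 0.41), intervals that include 0.

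The promoters of NRF2 targets are shown because the list moved together. In RefSeq sequence of build GRCm38.p6, from 250 bases before to 50 after each gene's start, the core of the antioxidant response element was searched as TGACNNNGC on both strands. It was present in 11 of 40 listed promoters (27.5%), against 12.5% of 27025 promoters and 14.7% of the 11235 promoters of genes above the signal limit. The letters can overlap the AP-1 motif TGANTCA, which 3 of the 11 promoters also held. Among the members called higher 7 of 29 held it, and among the others 4 of 11. Capitals mark the matches in the 3 called genes with the largest rises among those whose match lies wholly before the start site. Me1 and Srxn1, whose matches reach or lie past the start, are not shown. The stretches are, for Gsta3 at chr1:21240418-21240517 and Abcc2 at chr19:43782164-43782263, both on the plus strand, and for Mgst1, a microsomal glutathione transferase that rose by 0.91, at chr6:138140425-138140524 on the plus strand with the match read from the opposite strand.
Gsta3: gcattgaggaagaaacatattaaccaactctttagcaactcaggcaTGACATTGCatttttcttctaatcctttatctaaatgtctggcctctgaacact
Abcc2: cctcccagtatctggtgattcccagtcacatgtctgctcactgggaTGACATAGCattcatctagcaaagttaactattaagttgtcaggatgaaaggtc
Mgst1: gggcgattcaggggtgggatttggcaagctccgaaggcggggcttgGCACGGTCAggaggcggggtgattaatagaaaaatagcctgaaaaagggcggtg

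Most listed fatty acid genes rose without PPARα. Of 57 genes of fatty acid oxidation and PPAR targets above the limit 35 rose (61.4%) and 0 fell, with a median of 0.39. Pdk4, the kinase that switches off pyruvate dehydrogenase when fat is burnt, measured 6.81, 7.05 and 7.94 in control and 9.19, 10.42 and 10.79 in heme-fed mice. Vnn1, the pantetheinase vanin-1, went from 5.32, 5.68 and 6.11 to 6.95, 7.56 and 7.88, a rise of 1.85 ± 0.161 or 3.6-fold (adjusted p = 2.13e-08). Neither gene overlapped between the groups. Creb3l3, a liver and gut transcription factor of lipid metabolism, rose by 2.45 ± 0.175, Angptl4, the secreted inhibitor of lipoprotein lipase, by 1.79 ± 0.163 and the lipid droplet protein Cidec by 1.28 ± 0.143.

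Along the oxidation pathway, carnitine palmitoyltransferase Cpt1a rose by 0.31, the carnitine-acylcarnitine carrier Slc25a20 by 0.99 and Cpt2 by 0.87. In the mitochondrial matrix, the long-chain dehydrogenase Acadl rose by 0.87, Hadha and Hadhb of the trifunctional protein by 0.63 and 0.58, and the electron carriers Etfa, Etfb and Etfdh by 0.37, 0.56 and 0.45. Among peroxisomal enzymes the thiolase Acaa1b rose by 1.41 ± 0.184 and the bifunctional enzymes Ehhadh and Hsd17b4 by 0.55 and 0.39, whereas Acaa1a measured 0.15 (adjusted p = 0.246). The thioesterases Acot1, Acot2 and Acot4, close relatives whose probes can cross-hybridise, rose by 1.11, 1.33 and 1.02. The fatty acid transporter Slc27a4 rose by 0.44, while Slc27a2 (0.57, adjusted p = 0.0671), Cd36 (0.49), the medium-chain dehydrogenase Acadm (-0.18) and Fgf21 (-0.05) were not called. KO heme mouse 1 had the smallest mean over this list, 0.19 above the control mean against 0.5 to 0.69 in the other heme-fed mice.

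The genes whose response was called different between the genotypes were Fabp1 and Cyp4a31. Fabp1, the liver-type fatty acid-binding protein, measured 4.52, 4.85 and 6.08 in KO control and 4.4, 4.83 and 4.91 in KO heme-fed mice, and the groups overlapped (-0.22 ± 0.26, adjusted p = 0.598). In wild-type mice it rose by 4.03, and the difference between the responses, KO minus wild type, was -4.25 (95% interval -5.03 to -3.47, adjusted p = 8.34e-07). Cyp4a31, a fatty acid ω-hydroxylase of the Cyp4a cluster, stayed below the signal limit in KO mice (0.29 ± 0.168, adjusted p = 0.217) and rose by 3.2 in wild-type mice, a difference of -2.91 (-3.42 to -2.41, adjusted p = 5.11e-07). The limma test called these 2 genes and no other, and called 2 when any of the 23 arrays was left out, but 0 on linear signal in an ordinary two-way model. Ehhadh responded by 0.55 ± 0.109 in KO and 1.07 in wild-type mice, a difference of -0.52 (-0.84 to -0.19) that was not called. Cyp4a14 lay below the signal limit in KO mice. Acsl1 and Cyp4a10 share their probe sets with other symbols and were not analysed here.

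**Figure D2:**
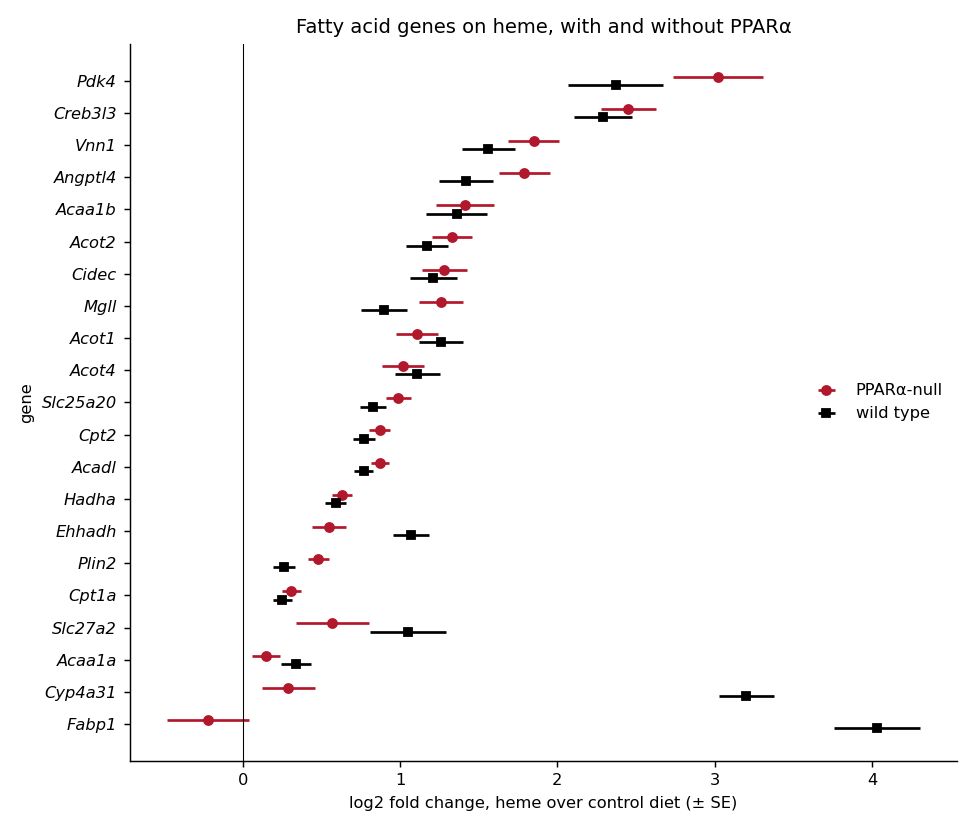
Heme minus control difference (log2, with standard error) of 21 genes of fatty acid handling in PPARα KO mice (6 against 6) and wild-type mice (6 against 5). Fabp1 and Cyp4a31 are near 0 in KO mice and above 3 in wild-type mice, and no other gene plotted was called for a difference between the genotypes.

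The genes of the receptors and their partners did not rise as a group, with 1 of 23 higher (4.35%) and 7 lower (30.4%, median -0.04), and 4 lower with arrays centred on their median. Pparg and Ppard each measured 0.03, with an adjusted p of 0.875 for Pparg, and Rxra measured -0.07. The coactivator Ppargc1a fell from 10.33, 10.42 and 10.61 to 9.32, 9.59 and 9.89, or by 0.85 ± 0.107, and Hnf4g, a nuclear receptor of enterocytes, by 0.8 ± 0.089. Lpin2, a phosphatidate phosphatase of the lipin family, whose relative Lpin1 acts as a coactivator, was the member that rose (1.16 ± 0.103), while Lpin1 measured 0.01.

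Cholesterol genes split by direction of flow. Of 28 members above the limit 16 rose (57.1%) and 5 fell (17.9%, median 0.37). The synthesis enzymes rose along the pathway, with Hmgcs1 at 0.64, Mvk at 0.59, Fdps at 0.73, Idi1 at 0.85, Fdft1 at 0.76, Sqle at 0.72, Lss at 0.66 and Cyp51, which removes a methyl group from lanosterol, at 0.85 ± 0.127. Cyp51 measured 7.56, 8.12 and 8.38 in control and 8.73, 8.89 and 9.12 in heme-fed mice. Genes of cholesterol export and of its control fell, namely Abcg5 (1.56 ± 0.279 lower), Abcg8 (-0.95), Abca1 (-0.54), Abcg1 (-0.48) and Mylip, a ubiquitin ligase (-1.23 ± 0.178). All 5 are targets of the oxysterol receptor LXR, whose gene Nr1h3 measured 0.25 and was not called. In KO heme mouse 1 Abcg5 reached 7.12, inside the control range of 6.72 to 7.46, and the other heme-fed mice were lower. The letters TCACNCCAC, a sterol response element, stood on either strand in 1 of 22 listed promoters (4.55%, against 1.22% of all and 1.17% of those above the limit). The enzymes Dhcr7 (-0.01) and Sc5d (-0.05) and the regulator Srebf2 (0.08) were not called.

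In fatty acid and glycerolipid synthesis 12 of 36 genes rose (33.3%) and 6 fell (16.7%, median 0.09). Apoc2, the activator of lipoprotein lipase, rose by 2.22 ± 0.173, acetyl-CoA carboxylase 2 (Acacb), which makes the malonyl-CoA that restrains Cpt1, by 1.1 ± 0.132 and the monoacylglycerol acyltransferase Mogat2 by 1.09 ± 0.145. Elongase Elovl6 (0.62), Dgat2 (0.57) and Fasn (0.31) rose less. Apob, the structural protein of chylomicrons, fell by 0.85 ± 0.16, and the carbohydrate-sensing factor Mlxipl by 0.4.

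Genes of surface repair rose strongly in part. Sprr1a, a cornified envelope protein that epithelia make under stress, measured 7.01, 7.88 and 8.44 in control and 10.24, 10.76 and 10.98 in heme-fed mice, 7.38-fold higher (adjusted p = 3.99e-09) and without overlap. Trim29 rose by 2.02 ± 0.306, Ly6d by 1.77 ± 0.203 and Trim15 by 1.38 ± 0.192, and the calcium-binding proteins S100a11 (0.80), Anxa1 (0.69) and Anxa2 (0.33) rose with them. Of 45 listed genes 14 rose (31.1%) and 4 fell (8.89%, median 0.18), the falls being the transglutaminase Tgm3 (-1.28 ± 0.335), Gsdmc2 (-1.01), Gsdmc (-0.47) and the alarmin Il33 (-0.78). Without KO control mice 3 and 4, 2 members were called lower. Keratins of injured squamous epithelium, Krt6a (0.19), Krt14 (0.16) and Krt17 (0.15), were not called.

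Among AP-1 and EGF receptor ligand genes 8 of 31 rose (25.8%) and 0 fell (median 0.44). Plat, tissue plasminogen activator, measured 5.24, 5.32 and 5.8 in control and 6.74, 8.51 and 8.89 in heme-fed mice, 6.79-fold higher (adjusted p = 7.52e-08). Plaur, the urokinase receptor, rose by 1.92 ± 0.233, Dusp5, a phosphatase that restrains ERK, by 1.36 ± 0.164, neuregulin Nrg1 by 1.02 ± 0.188 and the ligand Tgfa by 0.44. Amphiregulin's relatives Ereg (1.37) and Hbegf (1.16) and the early gene Egr1 (0.87) had large mean differences that were not called, and the heme-fed mice ranged widely over this list, from a mean of 0.05 in KO heme mouse 3 to 1.16 in KO heme mouse 4. The Plat response was larger in KO than in wild-type mice by 1.49 (0.71 to 2.27), and that of Trim15 by 0.94 (0.36 to 1.52), neither of them called. Fosl1 was not analysed here, because its probe set carries several symbols. The AP-1 motif TGANTCA, on both strands, stood in 1 of 21 listed promoters (4.76%), against 7.93% of all promoters and 5.42% of those above the limit.

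**Figure D3:**
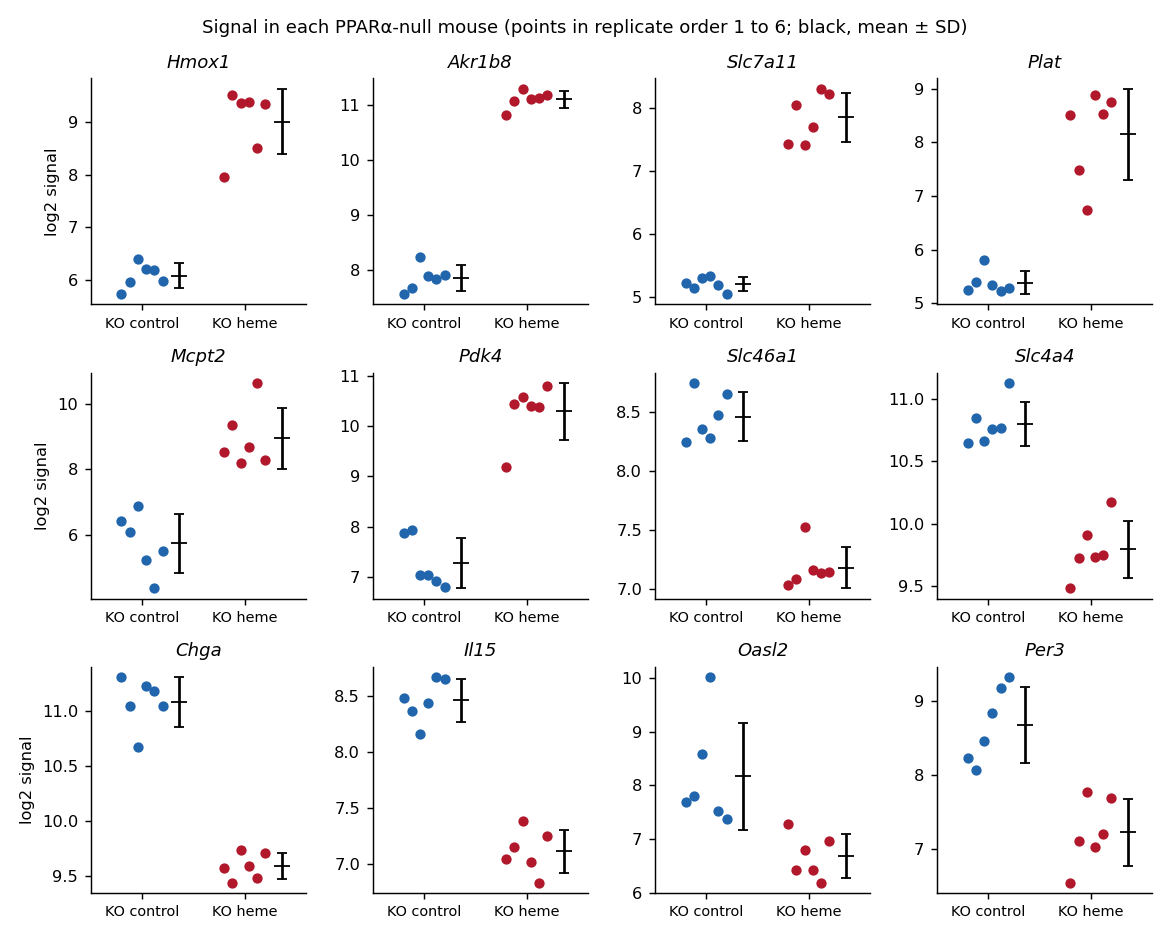
Log2 signal of 12 genes in each of the 12 PPARα KO mice, with the mean and standard deviation of the control and heme groups (n = 6 each). For Akr1b8, Slc7a11, Hmox1, Slc46a1, Chga and Il15 the groups stand clear of each other, and Oasl2 is high in KO control mice 3 and 4.

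Other stress pathways moved less. In the unfolded protein and integrated stress response list 10 of 46 rose (21.7%) and 2 fell (4.35%, median 0.13). The rises were the amino acid genes Psat1 (0.79), Phgdh (0.50), Shmt2 (0.58) and Asns (0.36), the tRNA synthetases Gars, Cars and Nars (0.30 to 0.45), Chac1, Ddit4 and Vldlr, whereas the chaperone Hspa5 (0.07) and the factors Xbp1 (0.06) and Atf4 (0.1) were not called. Psat1 lost its call without KO control mouse 2, 5 or 6 or KO heme mouse 1 or 5. The count of higher genes ran from 5, without KO control mouse 5, to 14, and was 6 without KO control mouse 2 or 6 or KO heme mouse 1, 2 or 5. Heat shock genes had 1 of 31 higher (Hspa9, 0.2) and 1 lower (Hsf2, -0.29), 3.23% each way, with a median of 0.15. Hspa9 lost its call without any of 10 single mice, all but KO control mouse 3 and KO heme mouse 3, and 5 were higher without KO heme mouse 3 and 8 with arrays centred on their median. Of 45 p53 targets and apoptosis genes 6 rose (13.3%, near the 12.2% of all genes) and 3 fell (6.67%, beside 12.1%), with a median of -0.01. Bak1 (0.51) and Casp8 (0.45) were higher, the death receptor Fas (-0.75) and the death ligand Tnfsf10 (-1.07) lower, and Cdkn1a (0.3) and Mdm2 (0.17) were not called. The heat shock element GAANNTTC was found in 7 of 27 listed promoters (25.9%, against 7.95% of all and 5.54% of those above the limit). None of these 27 promoters belonged to a member called higher. CCACG, the core that XBP1 and ATF6 share, was found in 30 of 37 promoters of the unfolded protein list (81.1%, against 32.7% of all and 45.3% of those above the limit).

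Transport genes of the colonocyte changed in both directions, with 12 of 61 higher (19.7%) and 13 lower (21.3%, median -0.04). The water channel Aqp8 rose from 10.7, 10.96 and 11.44 to 12.04, 12.12 and 12.34, or by 1.13 ± 0.105, and Aqp4 (0.82) and Aqp3 (0.73) rose too. Clca4a, a secreted regulator of chloride conductance, rose by 1.72 ± 0.169, and its close relative Clca4b had the largest difference of all called genes (3.53 ± 0.413), although its controls ranged from 6.97 to 10.77. The sodium-proton exchanger Slc9a3 rose by 0.67, the kinase Sgk1, which stabilises sodium channels, by 1.07, and the bile acid exporter subunit Slc51b by 0.85. The basolateral bicarbonate transporter Slc4a4 fell from 10.65, 10.76 and 11.13 to 9.48, 9.74 and 10.17 (-1.01 ± 0.101, adjusted p = 1.89e-07), with all heme-fed mice below all controls. Genes of chloride secretion fell with it, namely the cotransporter Slc12a2 (-0.49), the potassium channel subunits Kcnq1 (-0.41) and Kcne3 (-0.48) and the chloride channel Ano1 (-0.37), while Cftr measured -0.12. The calcium channel Trpv6 (-1.78 ± 0.22), the sulfate carrier Slc13a1 and the butyrate transporter Slc5a8 (-0.64) fell, and the chloride-bicarbonate exchanger Slc26a3 (-0.04), the epithelial sodium channel subunits (0.04 to 0.34) and the carbonic anhydrases Car1, Car2 and Car4 were not called.

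Markers of mature enterocytes were lower in 13 (29.5%) and higher in 5 (11.4%, near the 12.2% of all genes) of 44 cases (median -0.07). The peptidases Mme (-2.1), Naaladl1 (-1.2), Mep1a (-0.75), Anpep (-0.68) and Ace (-0.35) fell, as did the disaccharidase Sis. Structural genes of the brush border rose slightly, with villin Vil1 at 0.29, ezrin Ezr at 0.34 and Eps8 at 0.27, and the surface keratin Krt20 rose by 0.47 and alkaline phosphatase Alpi by 0.85 ± 0.165. In tight junctions and adhesion 7 of 35 rose, a share above the 12.2% of all genes (median 0.0). There 5 fell (14.3%), near the 12.1% of all genes. Claudin Cldn4 rose by 1.05 ± 0.18, E-cadherin Cdh1 and Epcam fell by 0.19 and 0.24, and the barrier genes Tjp1 (-0.11) and Ocln (-0.23) were not called. Without KO heme mouse 5 the 7 became 4. With arrays centred on their median the 5 became 2, and both Cdh1 and Epcam (-0.19, adjusted p = 0.0135) lost their calls.

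Among secretory cell genes more were called lower than higher, and most goblet and enteroendocrine members were not called. Of 36 goblet cell and mucus genes 3 rose (8.33%) and 10 fell (27.8%, median -0.1). The mucin Muc2 fell by 0.17, Tff3 by 0.32, Clca1 by 0.63 ± 0.112 and the determinants Atoh1 and Foxa3 by 0.48 and 0.51. Ang4, an antimicrobial ribonuclease, fell by 1.87 ± 0.312 and Itln1, the lectin intelectin, from 7.07, 9.07 and 10.07 to 5.18, 6.14 and 6.67. Both spread over more than 1 log2 unit among control mice, and in Itln1 the lowest control was close to the highest heme-fed mouse. Reg4 and Spink4 rose by 0.6 and 0.58, and Reg4 lost its call without KO control mouse 1 or 4 or KO heme mouse 2, 4 or 5.

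Enteroendocrine genes fell in 11 (31.4%) and rose in 3 (8.57%) of 35 cases (median -0.14). Chga, chromogranin A of hormone granules, measured 10.67, 11.11 and 11.31 in control and 9.44, 9.58 and 9.74 in heme-fed mice, 2.82-fold lower (adjusted p = 3.56e-11) and with little spread within either group. Chgb fell by 1.02 ± 0.0867, and of the serotonin genes Tph1, which makes its precursor, fell by 0.77 and the vesicle transporter Slc18a1 by 0.81. Ddc, the decarboxylase of the next step, rose by 1.04 ± 0.114, as did the peptide Insl5 (0.87) of the distal colon and the progenitor factor Neurog3 (0.6). The hormones Gcg (-0.01), Pyy (0.2) and Sst (-0.52) were not called. In the tuft cell and eicosanoid list 12 of 29 fell (41.4%) and 3 rose (10.3%, median -0.24). The taste-transduction channel Trpm5 fell from 6.39, 6.57 and 6.78 to 5.33, 5.57 and 5.95, Rgs13 by 0.85, Dclk1 by 0.5 and the determinant Pou2f3 by 0.44. The secreted phospholipase Pla2g2a (1.62 ± 0.215) and the prostaglandin reductase Ptgr1 (1.34 ± 0.12) were higher, neither of them restricted to tuft cells.

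**Figure D4:**
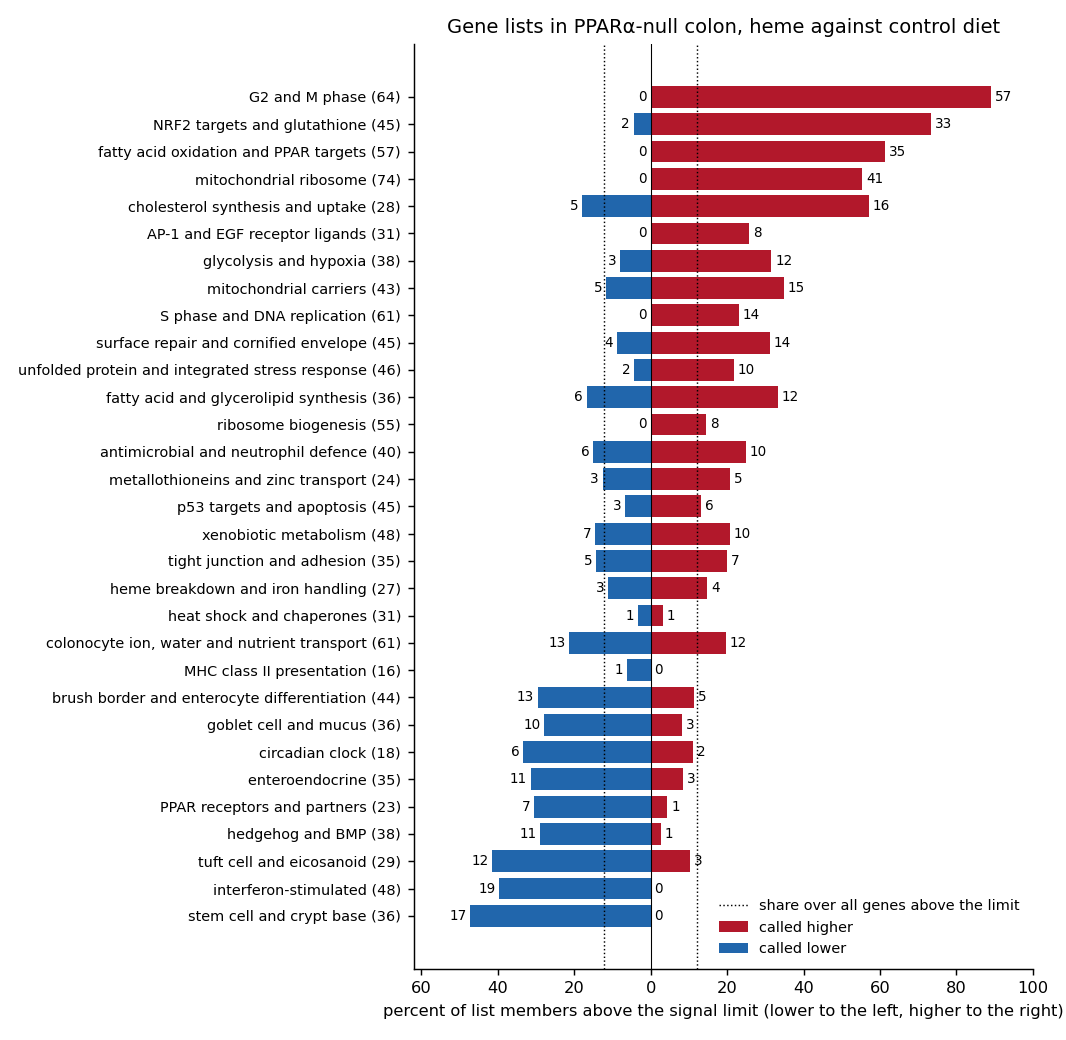
Percent of the members above the signal limit that were called higher or lower with heme in PPARα KO mice, for 31 gene lists, with the counts at the bars. Dotted lines mark the share over all genes (12.2% higher, 12.1% lower). The list of G2 and M phase, the NRF2 targets and the fatty acid list reach furthest on the higher side, and stem cell, tuft cell and interferon-stimulated genes on the lower side.

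Cell cycle genes rose in KO mice and none of those listed fell. Of 64 genes of G2 and M phase 57 rose (89.1%) and 0 fell, with a median of 0.65. Cks1b, a subunit of the cyclin-dependent kinase complex, measured 6.99, 7.19 and 7.5 in control and 7.88, 8.39 and 8.61 in heme-fed mice, a rise of 1.08 ± 0.155. The kinesin Kif4 rose by 1.06 ± 0.135, the kinetochore protein Spc25 by 0.94 ± 0.139, Plk1 by 0.86 and Cdk1 by 0.81. The 6 heme-fed mice averaged 0.46 to 0.97 over this list and the controls -0.34 to 0.29. Of 61 replication genes 14 rose, a share above the 12.2% of all genes, and 0 fell, with a median of 0.32. The regulator E2f2 (1.26 ± 0.185), ribonucleotide reductase Rrm2 (1.16 ± 0.221) and thymidine kinase Tk1 (0.68) led, and Pcna (0.11) and Mcm6 (0.2) were not called. The 14 became 8 without KO control mouse 5 or KO heme mouse 1 or 5, 9 without KO control mouse 1, 2 or 6 or KO heme mouse 4, and reached 21 at most.

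The promoters of the mitotic genes are shown for the CCAAT box, which the factor NF-Y binds. CCAAT, searched on both strands in the same windows, stood in 42 of 54 listed promoters (77.8%), against 37.9% of all promoters and 37.8% of those above the limit. It was in 38 of 49 promoters of members that rose and in 4 of 5 of the others. The stretches shown are those of the 3 called genes with the largest rises among those whose box lies before the start site. Capitals mark it in Cks1b at chr3:89418292-89418391 (minus strand), in Kif4 at chrX:100625965-100626064 (plus strand, read from the opposite strand) and in Spc25 at chr2:69206214-69206313 (minus strand), each ending 1 base before the start site.
Cks1b: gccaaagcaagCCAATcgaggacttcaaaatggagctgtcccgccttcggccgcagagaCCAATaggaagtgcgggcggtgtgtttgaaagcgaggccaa
Kif4: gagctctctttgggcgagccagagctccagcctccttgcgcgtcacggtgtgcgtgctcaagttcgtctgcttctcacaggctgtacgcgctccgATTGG
Spc25: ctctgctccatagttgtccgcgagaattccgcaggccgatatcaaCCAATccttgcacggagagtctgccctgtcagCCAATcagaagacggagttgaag
Cks1b and Spc25 each held 2 boxes in the stretch shown.

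Stem cell and crypt base genes fell in 17 of 36 cases and rose in 0 (47.2% lower, median -0.27). Lgr5, the receptor for R-spondins that marks stem cells, measured 7.67, 8.0 and 8.13 in control and 7.28, 7.4 and 7.66 in heme-fed mice, a fall of 0.54 ± 0.0706 (adjusted p = 6.25e-06), with the highest heme-fed and the lowest control mouse almost level. Ascl2, its partner in the stem cell program, fell by 0.62, the Notch ligand Dll1 by 0.85 ± 0.132 and the Wnt feedback genes Rnf43, Znrf3 and Axin2 by 0.46, 0.4 and 0.33. Smoc2 (0.02) was not called and Olfm4 lay below the signal limit. Hedgehog and BMP genes fell in 11 of 38 cases (28.9%) and rose in 1 (2.63%, median -0.2), the rise being lost without KO control mouse 1, 4 or 6 or KO heme mouse 4. Indian hedgehog, Ihh, made by surface cells and read by the stroma, fell from 8.97, 9.23 and 9.35 to 8.21, 8.45 and 8.77, its receptor and target Ptch1 by 0.71 and the ligands Bmp3 and Bmp2 by 0.99 ± 0.137 and 0.53. The stromal targets Gli1 (-0.37) and Foxf1 (-0.13) and the antagonist Grem1 (-0.36) were not called. The smooth muscle values given above moved in the same direction as these genes, and their part was not tested. The inhibitor Wif1 fell by 0.65 ± 0.0932, and Il15 from 8.16, 8.46 and 8.67 to 6.83, 7.1 and 7.38.

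Many mitochondrial genes rose by small amounts. Of 74 mitochondrial ribosomal proteins 41 rose (55.4%) and 0 fell (median 0.25), and the list mean was 0.21 to 0.31 in heme-fed and -0.04 to 0.03 in control mice. Mrpl20 (0.76 ± 0.0877) and Mrpl54 (0.62 ± 0.104) rose most. Among 43 mitochondrial carriers 15 rose (34.9%) and 5 fell (11.6%, near the 12.1% of all genes), with a median of 0.14. After Slc25a20 came Slc25a34 (0.85) and the ADP/ATP carrier Slc25a4 (0.56), while Slc25a23, a calcium-regulated carrier of ATP, fell by 0.65. Of 55 genes of cytosolic ribosome biogenesis 8 rose (14.5%, near the 12.2% of all genes) and 0 fell (median 0.18). The 8 became 3 without KO heme mouse 5, also 3 with KO control mice 3 and 4 left out, and 5 without KO control mouse 2, 4 or 5 or KO heme mouse 1 or 4.

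Glycolysis and hypoxia genes rose in 12 (31.6%) and fell in 3 (7.89%) of 38 cases (median 0.07). Hexokinase Hk2 measured 7.97, 8.22 and 8.65 in control and 8.61, 9.04 and 9.41 in heme-fed mice, so that the groups overlapped slightly, and rose by 0.79 ± 0.132. Its response in wild-type mice was -0.08, and the difference of 0.88 (0.48 to 1.27) was not called. Pgk1 (0.7), the glucose transporter Slc2a1 (0.43) and Hif1a (0.58) rose, and Ankrd37 (-0.64) and Vegfa (-0.31) fell. Ankrd37 lost its call without KO control mouse 2 or 4 or KO heme mouse 4 or 5. Xenobiotic metabolism changed both ways, with 10 of 48 higher (20.8%) and 7 lower (14.6%, median -0.01). The exporter Abcc4 rose by 1.61 ± 0.122 and the aldehyde dehydrogenases Aldh1a7 by 1.41 and Aldh9a1 by 0.8, whereas the sulfotransferases Sult1c2 and Sult1a1 fell by 1.68 ± 0.107 and 1.0 and the carboxylesterase Ces2a by 1.52 ± 0.215.

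Interferon-stimulated genes fell in 19 of 48 cases and rose in 0 (39.6% lower, median -0.59). Ifit1, a sensor of foreign RNA caps, measured 7.18, 7.93 and 9.51 in control and 5.41, 6.24 and 7.06 in heme-fed mice, and fell by 1.75 ± 0.34 (adjusted p = 0.000423). Ddx60 fell by 1.88 ± 0.281, the GTPase Gbp2 by 1.74 ± 0.295 and Oasl2 by 1.49 ± 0.345, and the antigen presentation genes B2m, Tapbp and Psmb8 by 0.4, 0.61 and 0.78. KO control mice 3 and 4 carried the highest values of this list. With both left out 12 genes were lower and 2 higher (Oasl1, 0.57, and Epsti1, 0.25), Ifit1 (-1.34, adjusted p = 0.00356), Ddx60 (-1.45) and Gbp2 (-1.34) stayed called, and Oasl2 did not (-0.92, adjusted p = 0.0102). Cxcl10 (0.02) and Mx1 (-0.3) were not called in the full set, and Isg15 lay below the signal limit. MHC class II genes had 0 of 16 higher and 1 lower (6.25%, median -0.11), which became 3 lower without KO heme mouse 1, whose mean over this list was 0.55 against -0.65 to -0.09 in the other heme-fed mice.

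In antimicrobial and neutrophil defence 10 of 40 rose and 6 fell (median 0.06). The share that rose is above the 12.2% of all genes, and the share that fell is near their 12.1%. The list mean was 0.4 in KO heme mouse 1 and 0.03 to 0.09 in the other heme-fed mice, inside the control range of -0.12 to 0.15. Slpi, an inhibitor of leukocyte proteases made by epithelia, rose from 7.48, 7.89 and 8.25 to 9.43, 9.83 and 10.1, or by 1.94 ± 0.124 (adjusted p = 2.61e-10). Socs3 (1.33 ± 0.208), the oxidase Nox1 (1.01 ± 0.158), Mmp9 (0.86) and the siderophore-binding Lcn2 (0.85 ± 0.2) rose, and Reg3b (0.24), Reg3g (0.58) and Nos2 (0.17) were not called. Lcn2 measured -0.02 in wild-type mice, with a difference of 0.87 (0.27 to 1.47) that was not called. Mmp9 lost its call without KO control mice 3 and 4, and Socs3 measured 9.0 in KO heme mouse 1 against 7.06 to 7.88 in the other heme-fed mice.

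Of the immune cell markers, those of mast cells rose in most cases. Of 10 above the limit 6 were higher and 1 lower (median 0.3), beside 12.2% and 12.1% of all genes. Mcpt2, a protease of mucosal mast cells, measured 4.39, 5.8 and 6.89 in control and 8.2, 8.61 and 10.63 in heme-fed mice, 9.1-fold higher (adjusted p = 7.04e-06), and Mcpt1 (2.63 ± 0.399), Cpa3 (1.46 ± 0.244) and Mcpt4 (0.85) rose with it. Mcpt1 and Mcpt2 are close relatives that probes may not separate fully. The list mean was 0.47 to 1.36 in heme-fed and -0.18 to 0.24 in control mice. Kit, the receptor of mast cells and also of interstitial and other cells, fell by 0.72. The enzyme Hdc (0.25) and Tpsb2 (0.03) were not called, and the IgE receptor subunits Fcer1a and Ms4a2 lay below the signal limit. Among other cell types, 0 of 16 fibroblast and 0 of 13 B cell and plasma cell markers were called. Lower were 1 of 12 endothelial (8.33%), 2 of 13 T and NK cell (15.4%) and 1 of 7 adipocyte markers (14.3%). Of 15 macrophage markers 1 moved each way (6.67% each), and of 7 neutrophil markers 1 was higher (14.3%). The T and NK cell, adipocyte and neutrophil shares are near the 12.1% lower and 12.2% higher of all genes. Of 9 enteric nerve and glia markers 1 was higher (11.1%) and 3 lower (33.3%), the latter above the share of all genes. Of 2 erythroid markers 1 was lower, too few for a share. The T and NK cell count became 5 lower without KO heme mouse 1. The 3 nerve markers (Stmn2, Snap25 and Vip) became 0 without KO control mouse 5 and 1 without KO control mouse 2 or 6 or KO heme mouse 4, 5 or 6, and the erythroid call, Alas2, was lost without KO control mouse 5 or KO heme mouse 1 or 2. The neutrophil call was lost without KO control mice 3 and 4.

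**Figure D5:**
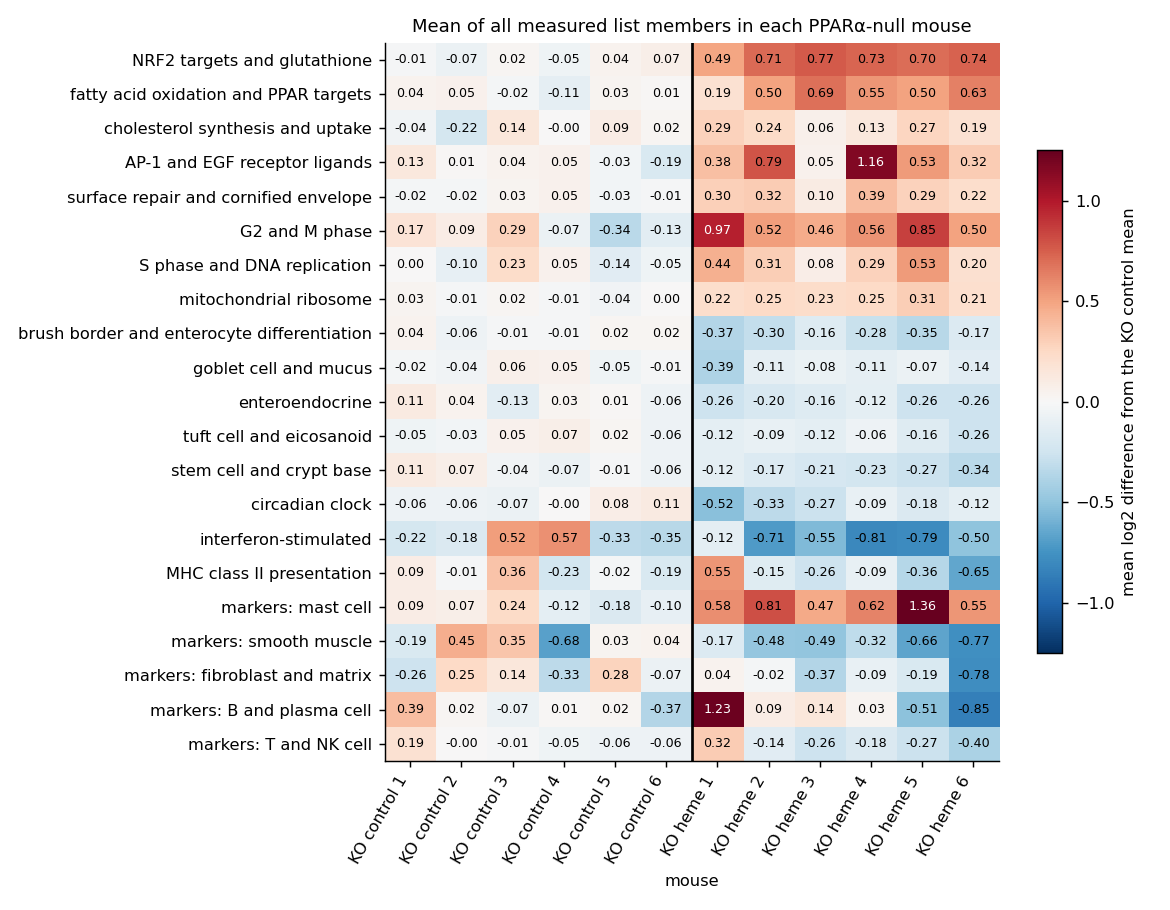
Mean log2 difference from the KO control mean over each of 21 gene lists (rows) in each of the 12 PPARα KO mice (columns), on a colour scale. The 6 heme-fed mice share their direction for NRF2 targets (0.49 to 0.77), G2 and M phase (0.46 to 0.97) and stem cell genes (-0.34 to -0.12), and KO heme mouse 1 and KO control mice 3 and 4 depart from their groups in the fatty acid and interferon rows.

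Clock genes moved in opposite directions. Per3, a repressor arm gene, measured 8.06, 8.64 and 9.32 in control and 6.54, 7.15 and 7.77 in heme-fed mice, without overlap (-1.46 ± 0.272, adjusted p = 0.000294), and Per2 fell by 1.09 ± 0.212. Arntl, which encodes BMAL1 of the activator arm, rose by 0.88 ± 0.205 and Nfil3 by 0.68, while Clock (0.05) and Per1 (0.06) were not called. Of 18 clock genes 2 rose (11.1%, near the 12.2% of all genes) and 6 fell (33.3%, median -0.34), and 1 rose without KO control mouse 3 or 6 or KO heme mouse 4. The sources used here do not state the hour at which each mouse was killed, and the part of that hour was not tested. Hlf (-0.78) lost its call without KO control mouse 3, 5 or 6 or KO heme mouse 1, 2, 4 or 6.

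MicroRNA hairpins, a family chosen after its values were seen, fell in 17 and rose in 2 of 133 cases above the limit, shares of 12.8% and 1.5% beside 12.1% and 12.2% of all genes, so that the share that fell is near the background. With arrays centred on their median 13 fell and 2 rose. The array reads the hairpin transcript and not the mature arms, and mature sequences of hairpins that lie in a shared cluster or give a shared mature sequence are given from RefSeq (GRCm38.p6) with the seed, bases 2 to 8, in capitals, because the seed sets which messages a microRNA can pair with.
miR-200b-3p: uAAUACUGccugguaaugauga
miR-200a-3p: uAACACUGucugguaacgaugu
miR-27b-3p: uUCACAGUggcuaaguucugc
miR-24-3p: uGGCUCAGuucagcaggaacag
miR-15a-5p: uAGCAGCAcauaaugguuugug
miR-16-5p: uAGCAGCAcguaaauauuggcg
miR-181b-5p: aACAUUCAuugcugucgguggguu
Mir200b (chr4:156055681-156055750) and Mir200a (chr4:156054896-156054985), neighbours on the minus strand that restrain the ZEB factors of epithelial identity, fell by 0.99 and 0.64, and their 3p seeds differ. Mir23b, Mir27b and Mir24-1 lie within 1 stretch of chromosome 13 (chr13:63300484-63301275) and fell by 0.84, 1.05 and 0.76. Mir15a and Mir16-1 of chromosome 14 share the seed AGCAGCA and fell by 0.41 and 0.54. Mir181b-1 on chromosome 1 and Mir181b-2 on chromosome 2 give the same mature 5p sequence, and their separate hairpins fell by 0.69 and 0.57. Mir680-2 (0.61) and Mir692-1 (0.58) were the 2 that rose. Of the 19 called hairpins 17 had a mature sequence in the table, and the others were Mir151 and Mir30b.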

How the data were processed

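Scraped colon mucosa of 23 mice was measured on whole-transcript Affymetrix arrays, with 100 ng RNA per mouse. The deposited values are on the log2 scale, 1 per probe set, and were made by the authors with the Robust Multi-array Average (RMA), whose version the sources do not give. Array medians lay between 5.8 and 5.9, and 0 columns were left unmatched to a sample. Quantile normalisation pulls arrays to one distribution and can hide a change common to most genes. RMA also compresses the differences of dim genes. Array signals carry no read depth, so the number of arrays limits the precision.

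Of 35556 probe sets, 21218 carried 1 gene symbol in the platform annotation, 1881 several and 12457 none. Symbols were updated by Entrez number (21185 matched), and of several probe sets of a gene (1386 genes) the brightest over 23 arrays was used, which left 18820 genes. Probe sets with several symbols were left out. limma 3.58.1 (R 4.3.3) fitted the 4 groups in 1 model. The heme effect in KO mice and its difference from the effect in wild-type mice were tested with Benjamini-Hochberg adjustment over 18820 genes, and a call needed an adjusted p under 0.01 and a group mean above a linear signal of 20, as the study's thresholds are. The study's text does not name its test.

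Members and gene lists were chosen with earlier results of these data known. Genes named in full were Ppara, the 15 called genes of largest change each way without overlap, up to 4 called members of each list, genes called for the difference between genotypes, genes the study names, and list members that describe a role. Lists are given as counts with no test, most of them with their share and median. They are to be read beside 12.2% higher and 12.1% lower of all genes above the limit, and a median of -0.01 over all genes. Single-gene permutation tests enumerated every regrouping and were two-sided (Python 3.11.15, numpy 2.4.6, pandas 2.3.3), and figures used matplotlib 3.10.9. On simulated data for the heme effect in KO mice over 18820 genes, the fit called 76.4% of genes given a log2 change of 0.5, 97.6% at 1 and 99.7% at 2. The simulated noise was normal and independent for each gene and array, and far fewer genes were changed than the 3469 called here. These shares therefore describe the simulation and may not hold for the real mice. Alternatives were other filters, thresholds, variance models, centring, array weights, linear signal, KO arrays only, averaged probe sets, the replicate number as a block and each array left out, with 1 added after seeing the data (KO control mice 3 and 4 left out). For the heme calls in KO mice, leaving out single arrays is reported for KO arrays only.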

Additional observations from a re-analysis of the deposited data

Results flagged for a closer look

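The response to heme differed between the genotypes by a test of the difference itself for 2 genes, Fabp1 (-4.25, KO minus wild type, log2) and Cyp4a31 (-2.91).

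Single mice lay far from the rest of their group in 27 of 326 groups of 6 mice examined for the named genes. Chance flags about 1 in 20 independent groups, but these groups come from the same 12 mice. Many of their genes were also picked from these data, so the 27 cannot be set against that rate. KO heme mouse 1 accounted for 12 of the 27. Its log2 signal was the lowest of its group for Pdk4 (9.19), Creb3l3 (6.78), Me1 (8.55), Cbr3 (5.14), Apoc2 (9.45), Acacb (7.63), Ptgr1 (8.1), Ndrg1 (10.66), Pck1 (7.87) and Fabp1 (4.4), and the highest for Abcg8 (5.72) and Cd14 (8.79). KO control mouse 3 accounted for 9, as the highest of its group for Plat (5.8), Pla2g5 (7.77), Ido1 (8.79), Gbp2 (9.95), Cbr3 (4.37), Cd14 (7.88) and Fabp1 (6.08) and the lowest for Pck1 (8.96) and Wif1 (5.04). The remaining values were Ces2a in KO control mouse 4 (8.46), Aldh1a7 in KO control mouse 2 (6.17), Slc46a1 (7.52) and Sod1 (12.15) in KO heme mouse 3, and Scarna13 (9.58) and Clca4a (11.72) in KO heme mouse 6.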

How the results depend on the processing

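The 3469 calls became 5235 at an adjusted p under 0.05 (2750 of them lower) and 185 with an absolute log2 change above 1 also required (111 higher, 74 lower). With each KO array left out in turn the calls ran from 2772 to 3505 (1390 to 1717 higher, 1382 to 1788 lower). The other settings of filter, variance model, weights and probe sets gave 3059 (KO arrays only) to 4031 (array weights). The 2 calls for a difference between genotypes became 0 on linear signal in an ordinary two-way model and were 2 with any 1 array left out. Mice of KO control and KO heme with the same replicate number shared only that number (correlation of their deviations -0.317 to 0.348, with 2 of 6 matching their own number best). With the replicate number as a block 3504 genes were called (1750 higher, 1754 lower), and 2 for the difference. Of 155 named genes called, 17 lost the call without some single KO array. Among 4030 values over all settings 3802 kept direction and call, 228 lost the call and 0 changed direction. Of 2444 list counts 2177 stayed within 1.5 times. Small changes of dim genes are the least certain, and with 6 arrays a group a call that was missed does not show that a gene was stable.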

Other observations

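Families chosen after their values were seen, and given here as values only, moved by small amounts. Of 305 Zfp zinc finger genes above the limit 6 rose (1.97%) and 76 fell (24.9%) in KO mice, beside 12.2% and 12.1% of all genes. The 76 became 46 without KO heme mouse 5 and 42 with arrays centred on their median. Centring also took the lower calls over all genes from 1731 to 1175. Of 67 cytosolic ribosomal protein genes 1 rose (1.49%) and 11 fell (16.4%), which became 3 higher and 2 lower with centring, so that no direction can be given. Of 36 proteasome subunit genes (Psm) 26 rose (72.2%) and 2 fell (5.56%). Their mean was 0.17 to 0.33 above the control mean in heme-fed mice and -0.09 to 0.13 in control mice.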
